A study of Mus musculus with 1024 samples.

Results

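The genes described here encode 3 families of the extracellular matrix: the matrix metalloproteinases (Mmp), the ADAMTS proteases and the tissue inhibitors of metalloproteinases (Timp). Members were taken by gene symbol from a table of read counts per gene, without the related Adamtsl genes. The rule found 46 of the 24422 genes in the table, 23 Mmp, 19 Adamts and 4 Timp genes. They were followed in single cells from the mouse aorta, across sort gate, genotype and preparation.

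Matrix metalloproteinases are zinc enzymes that cut collagens, gelatin, elastin and other matrix proteins, and they are made as inactive proenzymes. Some are secreted, whereas the membrane-type enzymes stay on the cell surface, where MMP14 also activates the proenzyme of MMP2. ADAMTS enzymes cut proteoglycans such as versican, remove the N-propeptides of procollagens or bind fibrillin fibres. TIMPs block the active site of these enzymes. In the aortic wall, loss of elastin and collagen through such proteolysis is a known feature of aneurysm.

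Aortas came from mice aged 3 months, and the strain label of every well reads Amotl2flow/flow / Cdh5-RREert /ROSA26-EYFP, so the floxed Amotl2 gene, the Cre transgene and the EYFP reporter stand in the labels of WT and KO alike. According to the study's methods Cre is tamoxifen-inducible and driven by the endothelial Cdh5 promoter, so in KO mice Amotl2 is deleted in endothelial cells (ECs) only. Viable Cd45- cells were sorted into wells as Cd31+ (labelled Endothelial) or Cd31- (labelled DoubleNegative) and sequenced with Smart-seq2. There were 4 groups, WT Cd31+, KO Cd31+, WT Cd31- and KO Cd31-, each from 2 preparations (sort 1 and sort 2), which gave 8 sums of wells. WT and KO wells of 1 sort number are set side by side below. The labels do not state that they shared a preparation. The labels name no mouse and mice were pooled, so p-values measure the spread between preparations. In sort 1 the genotypes lay on separate plates and cannot be told apart from them, and in sort 2 they shared a plate.

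Of 1024 wells, 784 held at least 20000 counts and 500 genes and were kept. The Cd31+ sums rested on 50 to 302 wells and 8470943 to 94881185 counts, and the Cd31- sums on 12 to 42 wells and 926398 to 9435015 counts. Amotl2 was at 59.9 and 94.0 CPM (counts per 1000000 gene counts of a sum) in WT Cd31+ sums and at 51.9 and 45.7 in KO Cd31+ sums, and a count per gene does not resolve the deleted part. EYFP was at 2.38 and 0.353 CPM in WT and at 113 and 85.5 in KO Cd31+ wells, and at 0 in every Cd31- sum. The Cd31+ sums carried the endothelial markers (10 genes, 12529 to 14136 CPM together), against 71.1 to 1307 CPM in Cd31- sums, where the highest value was WT sort 2. In Cd31- sums 8 smooth muscle markers came to 21089 to 53542 CPM and 8 fibroblast markers to 2904 to 31678 CPM. Ptprc, the gene of Cd45, was at 0.0105 CPM in the KO sort 1 Cd31+ sum and had no count in the other sums.

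Of the 46 members, 13 had no count in any kept well, which allows a share of up to 0.383% of the 784 wells (3 wells; this limit and all intervals cover counting error only, as the method counts reads and not molecules). Most kept wells were Cd31+. For the cell classes described below the limit is wider, 3.57% of 84 smooth muscle-like and 7.69% of 39 fibroblast-like wells. Among these 13 were the gelatinase Mmp9, the collagenases Mmp1a, Mmp1b, Mmp8 and Mmp13, the macrophage elastase Mmp12 and matrilysin Mmp7. Only Cd45- cells were sorted, so these values do not cover the leukocytes of the aorta. A further 4 members had 1 to 10 counts in all. In Cd31+ wells 32 members had at least 1 count, and in Cd31- wells 29. The 22 members with a mean of at least 5 CPM over the 4 sums of either gate are described below, and the other members with counts stayed under that level.

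Per kilobase of exons, which allows genes to be compared, the inhibitors led in Cd31+ wells. Timp3, whose protein binds to the matrix and also blocks ADAMTS enzymes, stood at 291 ± 52.3 CPM per kilobase (SD, n = 4 sums), followed by Timp2 at 97.7 ± 21.4. The aggrecanase Adamts1, which cleaves versican, was at 61.3 ± 29.9 and the gelatinase Mmp2 at 60.6 ± 14.3, and these 2 neighbours did not differ beyond their spread. Timp1 came next at 15.01 ± 5.89 CPM per kilobase. Mmp2 alone gave 82.9% to 89.7% of the per-kilobase level of all Mmp genes in each Cd31+ sum, and Adamts1 gave 75.8% to 89.7% of that of all Adamts genes.

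In Cd31- wells the order was different and the spread wide. The stromelysin Mmp3 had the highest mean, 278 ± 389 CPM per kilobase (SD, n = 4 sums), ahead of Timp3 at 213 ± 52.6, the membrane-anchored Mmp23 at 109 ± 68.6, Timp2 at 104 ± 61.4 and Mmp2 at 102 ± 95.8. Timp3 lay above Mmp23 in each of the 4 sums, at 152 to 261 against 36.8 to 196 CPM per kilobase, ranges that overlapped. Mmp3 was above Timp3 in sort 1 and below it in sort 2 in both genotypes, and Mmp23, Timp2 and Mmp2 did not differ beyond their spread.

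Upstream sequences of 4 members are shown because these genes carry the contrast described below: Mmp3, Mmp23 and Mmp14 were called higher in Cd31- wells, and Adamts1 was high in both gates. Each run is the 150 bases before a RefSeq start in GRCm38.p6, 5′ to 3′ on the gene's strand, with capitals on matches to 3 motifs, the AP-1 site TGANTCA, the TATA box TATAAA and the GC box GGGCGG, each searched on both strands.
Mmp3 (chr9:7445672-7445821, plus strand): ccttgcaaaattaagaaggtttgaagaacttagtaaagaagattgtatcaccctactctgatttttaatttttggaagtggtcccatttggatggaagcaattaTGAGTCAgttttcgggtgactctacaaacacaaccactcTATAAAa
Mmp23 (chr4:155653385-155653534, minus strand): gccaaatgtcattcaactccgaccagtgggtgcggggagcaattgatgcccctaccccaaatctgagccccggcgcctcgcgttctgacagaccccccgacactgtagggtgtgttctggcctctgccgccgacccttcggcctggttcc
Mmp14 (chr14:54431448-54431597, plus strand): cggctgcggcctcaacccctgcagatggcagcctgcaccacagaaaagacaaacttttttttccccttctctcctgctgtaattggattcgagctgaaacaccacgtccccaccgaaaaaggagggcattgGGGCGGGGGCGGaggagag
Adamts1 (chr16:85803114-85803263, minus strand): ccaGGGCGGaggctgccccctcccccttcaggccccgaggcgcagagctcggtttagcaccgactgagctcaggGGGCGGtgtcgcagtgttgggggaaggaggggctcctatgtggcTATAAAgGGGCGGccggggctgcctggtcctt

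In the Mmp3 window an AP-1 match started 46 bases and a TATA match 7 bases before the start. Adamts1 had a TATA match 32 bases before the start and 3 GC boxes, Mmp14 had 2 GC boxes and Mmp23 had no match to these letters. RefSeq windows from 250 bases before to 50 bases after the start were found for 32 of the 46 members, 35 windows in all. Of these windows 22.9% held AP-1, 31.4% the TATA box and 51.4% the GC box, against 7.81%, 13.6% and 35.7% of 32851 windows of all genes. Among the windows of members with a mean of at least 5 CPM in either gate, only that of Mmp3 held AP-1. Only those of Mmp3 and Adamts1 held the TATA box. The other AP-1 and TATA windows belonged to members under that level. All windows of described members held a GC box except those of Mmp3, Timp4 and the Mmp23 start shown above. No window was found for Mmp2, Mmp16, Mmp17, Mmp19, Adamts5, Adamts6, Adamts8, Adamts10 and Adamts15. The shares therefore say nothing about the described members as a set. These matches are letters in a window, and no binding was measured.

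Which members differed between the gates was asked with 8 sums, as Cd31- minus Cd31+ over both genotypes. The proteases Mmp3, Mmp11, Mmp14, Mmp17, Mmp23, Adamts2, Adamts5, Adamts8 and Adamts15 were higher in Cd31- wells, Mmp28 was lower, and no Timp gene passed the test. Of 12729 genes tested with edgeR, 9.25% were called higher and 9.79% lower in Cd31- wells at an adjusted p under 0.05. Of the 46 members 26 passed the filter on low counts, and 9 of them were higher and 1 lower. The median log2 fold change of these 26 members was 2.16, against -0.15 over all genes tested, and a gene that passed the filter only through the gate where it is high had to differ. Of the called members, Mmp3, Mmp23 and Adamts8 did not pass the filter within the Cd31+ sums alone. Mmp28 did not pass it within the Cd31- sums alone. The counts and the median above include these genes. In sums of wells, fewer cells of a type and less RNA per cell cannot be told apart.

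The 10 members called between the gates are given here with their GENCODE vM21 spans in GRCm38. The Mmp genes are Mmp3 (ENSMUSG00000043613, chr9:7445822-7455975, plus strand), Mmp11 (ENSMUSG00000000901, chr10:75923222-75936496, minus strand), Mmp14 (ENSMUSG00000000957, chr14:54431612-54445364, plus strand), Mmp17 (ENSMUSG00000029436, chr5:129584169-129611099, plus strand), Mmp23 (ENSMUSG00000029061, chr4:155650655-155653384, minus strand) and Mmp28 (ENSMUSG00000020682, chr11:83440768-83463071, minus strand). The Adamts genes are Adamts2 (ENSMUSG00000036545, chr11:50602084-50807573, plus strand), Adamts5 (ENSMUSG00000022894, chr16:85856173-85901828, minus strand), Adamts8 (ENSMUSG00000031994, chr9:30942562-30963838, plus strand) and Adamts15 (ENSMUSG00000033453, chr9:30899155-30922452, minus strand). Values count reads over all exons of a gene.

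**Figure D1:**
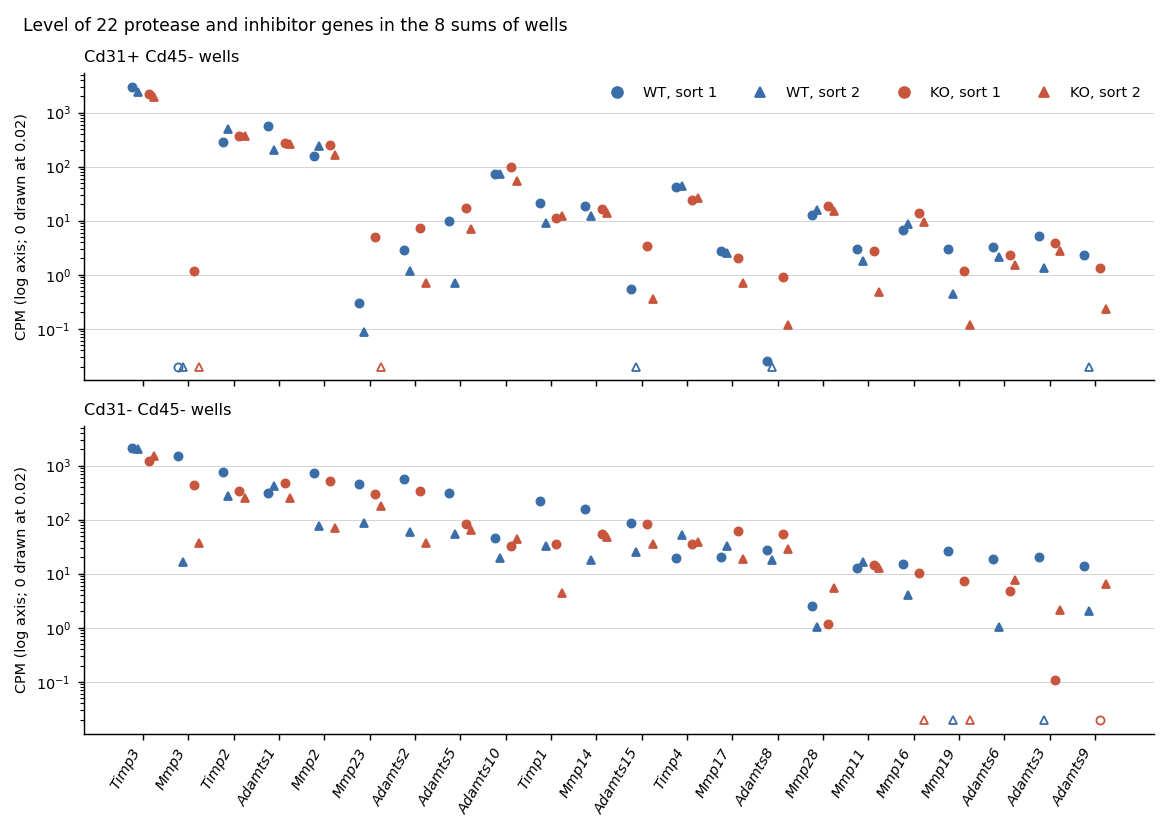
CPM of the 22 members in each of the 8 sums of wells, on a log axis, with WT in blue, KO in red, circles for sort 1, triangles for sort 2 and open symbols for 0. Timp3 lies at 1963 to 2950 CPM in the Cd31+ sums, and Mmp3 and Mmp23 fall to 5.05 CPM or less in Cd31+ wells.

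Mmp3, stromelysin-1, which degrades proteoglycans and activates other proenzymes, was at 1511 and 16.2 CPM in the WT sort 1 and sort 2 Cd31- sums and at 440 and 36.7 in the KO ones. In Cd31+ wells it was at 0 in 3 sums and at 1.15 CPM in KO sort 1, where all 109 counts came from 2 wells. The gates did not overlap, and sort 1 was far above sort 2 among the Cd31- sums of both genotypes. The log2 fold change was 12.81 ± 2.13 (SE, n = 4 and 4 sums; edgeR adjusted p = 0.00548), a fitted value that depends on the prior count since Cd31+ sums are near 0. Mmp3 did not pass the filter within the Cd31+ sums alone, so it had to differ and this p adds no support.

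Mmp11, stromelysin-3, was evenly spread, at 12.5, 16.2, 14.5 and 12.95 CPM in the Cd31- sums (WT sort 1, WT sort 2, KO sort 1 and KO sort 2, the order used from here on) and at 3.03, 1.76, 2.77 and 0.472 in the Cd31+ sums. Its log2 fold change was 2.93 ± 0.77 (SE; edgeR adjusted p = 0.0299), and the adjusted p was 0.0538 to 0.152 without KO sort 1 Cd31- or without any 1 of the Cd31+ sums. In all, 6 fits with other settings or sums left out lost the Mmp11 call. Mmp28, epilysin, went the other way, at 2.56, 1.01, 1.17 and 5.40 CPM in Cd31- and 12.8, 15.6, 18.6 and 14.99 in Cd31+ sums, which did not overlap. Its log2 fold change was -2.58 ± 0.76 (SE; edgeR adjusted p = 0.0458), and with genotype and preparation as a block the adjusted p was 0.0682. Mmp28 did not pass the filter within the Cd31- sums alone, so it had to differ and these p-values add no support. In wells of at least 100000 counts Mmp28 was not called either. The call was also lost, at an adjusted p of 0.0706 to 0.175, without any 1 of the Cd31+ sums, KO sort 1 Cd31- or WT sort 2 Cd31-. In all, 9 of 16 such fits lost the Mmp28 call. The 34 counts behind the Cd31- values of Mmp28 came from 6 wells, and part of its exons overlaps 1700020L24Rik on the other strand. The method does not keep the strand, so such reads cannot be told apart. The same holds for Mmp11 with Chchd10 (155 exon bases), Mmp19 with Tmem198b (789) and Adamts8 with Gm29724 (489), which also lie on opposite strands.

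Mmp19, another secreted enzyme, was at 26.1, 0, 7.42 and 0 CPM in Cd31- and 2.95, 0.441, 1.19 and 0.118 in Cd31+ sums, and was not called (edgeR adjusted p = 0.223). Among the collagenases and gelatinases Mmp2, which cuts gelatin and basement membrane collagen, was the only member above 5 CPM. It was at 717, 76.9, 510 and 69.1 CPM in Cd31- and 159, 242, 250 and 167 CPM in Cd31+ sums, so that the sort 1 Cd31- sums lay above, and the sort 2 Cd31- sums below, every Cd31+ sum. Its log2 fold change of 0.84 ± 0.71 (SE) did not pass (edgeR adjusted p = 0.480).

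Of the membrane-bound enzymes Mmp23 was at 459, 86.0, 294 and 179 CPM in Cd31- sums. In Cd31+ sums it was at 0.300, 0.0882, 5.05 and 0. The gates were far apart, with a log2 fold change of 8.43 ± 1.15 (SE; edgeR adjusted p = 0.00145). Mmp23 did not pass the filter within the Cd31+ sums alone, so it had to differ and this p adds no support. Mmp17, a glycolipid-anchored enzyme, was at 20.8, 32.4, 60.7 and 18.4 CPM in Cd31- and 2.703, 2.56, 2.02 and 0.708 in Cd31+ sums, a log2 fold change of 4.18 ± 0.63 (SE; edgeR adjusted p = 0.00237). Mmp14, the activator of MMP2, was at 155, 18.2, 53.9 and 48.6 CPM in Cd31- sums. In Cd31+ sums it was at 18.97, 12.0, 16.8 and 13.9 CPM, so that WT sort 2 lay within the Cd31+ range. Its log2 fold change was 2.23 ± 0.59 (SE; edgeR adjusted p = 0.0293), and without the WT sort 1 Cd31- sum it was 1.09 with an adjusted p of 0.103. Leaving out any other sum but WT sort 2 Cd31- also ended the call, at an adjusted p of 0.0553 to 0.114. In all, 8 of 16 fits with other settings or sums left out lost the Mmp14 call. Mmp16 did not differ beyond its spread, with 15.2, 4.05, 10.5 and 0 CPM in Cd31- and 6.66, 8.56, 13.8 and 9.44 in Cd31+ sums (edgeR adjusted p = 0.919).

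**Figure D2:**
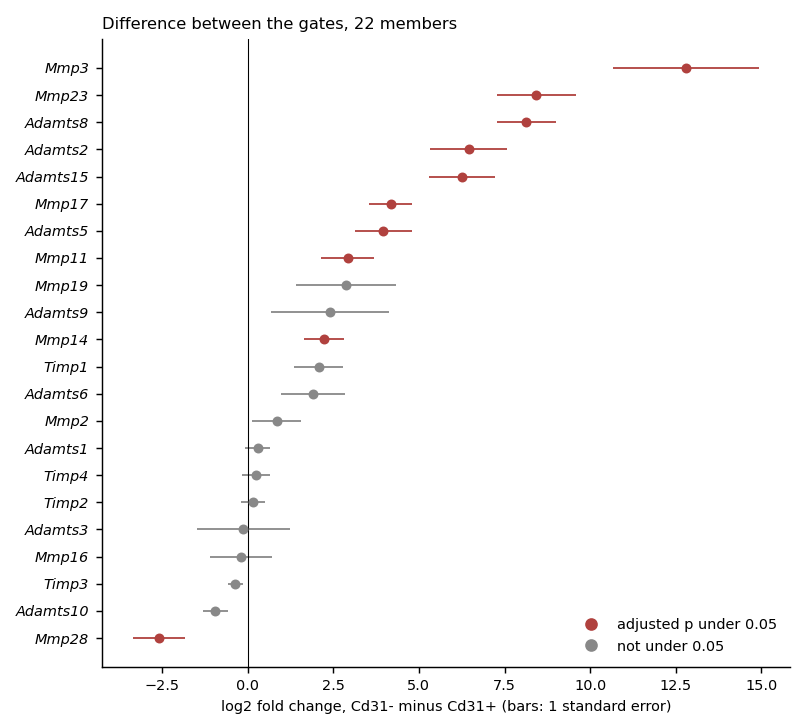
Log2 fold change between the gates (Cd31- minus Cd31+, x axis) of the 22 members, with bars of 1 standard error and red for an edgeR adjusted p under 0.05. Mmp3 at 12.81 and Mmp28 at -2.58 are the ends of the range.

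The proteoglycan-cleaving ADAMTS genes divided in this comparison. Adamts8 was at 27.4, 18.2, 55.3 and 28.1 CPM in Cd31- sums and at 0.0250, 0, 0.917 and 0.118 in Cd31+ sums, a log2 fold change of 8.14 ± 0.87 (SE; edgeR adjusted p = 0.000489). Adamts8 did not pass the filter within the Cd31+ sums alone, so it had to differ and this p adds no support. Its neighbour on chromosome 9, Adamts15, was at 85.9, 25.3, 83.9 and 35.6 CPM in Cd31- and 0.551, 0, 3.38 and 0.354 in Cd31+ sums, a log2 fold change of 6.26 ± 0.97 (SE; edgeR adjusted p = 0.00284). The genes lie 20.1 kb apart, and neither gate range overlapped the other for either gene.

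Adamts5 was at 318, 54.7, 81.9 and 63.7 CPM in Cd31- sums and at 10.04, 0.706, 16.9 and 6.96 in Cd31+ sums, a log2 fold change of 3.96 ± 0.84 (SE; edgeR adjusted p = 0.0121). Adamts1, which lies 53.1 kb from Adamts5 on chromosome 16, was at 307, 418, 479 and 256 CPM in Cd31- and 558, 205, 278 and 259 in Cd31+ sums. The ranges of Adamts1 overlapped, with a log2 fold change of 0.29 ± 0.37 (SE; edgeR adjusted p = 0.649). Adamts9 was low in both gates, at most 13.9 CPM, and was not called.

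Adamts2, a procollagen N-propeptidase, was at 556, 58.7, 333 and 36.7 CPM in Cd31- sums and at 2.88, 1.15, 7.38 and 0.708 in Cd31+ sums, a log2 fold change of 6.45 ± 1.11 (SE; edgeR adjusted p = 0.00474). Adamts3, a second enzyme of that kind, reached 20.5 CPM in WT sort 1 Cd31- wells and 5.13 CPM at most in Cd31+ wells. Adamts10, which binds fibrillin-1, was at 46.1, 19.2, 32.2 and 44.3 CPM in Cd31- and 72.4, 74.3, 96.4 and 54.8 in Cd31+ sums. These Adamts10 ranges did not overlap, but the log2 fold change of -0.94 ± 0.37 (SE) did not pass (edgeR adjusted p = 0.120). Adamts6, related to Adamts10, was at 18.7 CPM or less in every sum.

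No inhibitor passed the edgeR test between the gates, and Timp1 did so under some alternatives. Timp3 was at 2125, 2051, 1236 and 1511 CPM in Cd31- and 2950, 2405, 2168 and 1963 in Cd31+ sums (log2 fold change -0.36 ± 0.23, SE; edgeR adjusted p = 0.338). Timp2 was at 759, 268, 332 and 256 CPM in Cd31- and 289, 491, 366 and 376 in Cd31+ sums (edgeR adjusted p = 0.829). Timp4 was at 19.3, 52.6, 34.8 and 37.8 CPM and at 41.9, 43.9, 23.7 and 25.9, in the same order (edgeR adjusted p = 0.738). Timp1 had a higher mean in Cd31- sums, with 219, 32.4, 35.8 and 4.32 CPM against 20.95, 9.18, 11.01 and 12.2, but KO sort 2 lay below the Cd31+ range and its log2 fold change of 2.08 ± 0.72 (SE) did not pass (edgeR adjusted p = 0.0784). Timp1 was called by DESeq2 (adjusted p = 0.0192), by edgeR without a filter on low counts, and by edgeR without KO sort 2 Cd31- (0.0406), without WT sort 2 Cd31- (0.0240) or without both (0.00128). Timp1, Timp3 and Timp4 lie inside the synapsin genes Syn1, Syn3 and Syn2 on the opposite strand. Exons overlap over 1733 bases for Timp3 and 90 for Timp4, where reads of the pairs cannot be told apart, and over 0 bases for Timp1.

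The Cd31- gate held several cell types, so wells were clustered without the members among the variable genes. The clusters gave 661 endothelial-like, 84 smooth muscle-like and 39 fibroblast-like wells. Of the 108 Cd31- wells, 70 were smooth muscle-like, 37 fibroblast-like and 1 endothelial-like, and of the 676 Cd31+ wells 16 were smooth muscle-like or fibroblast-like. The mixture differed between preparations: the Cd31- wells held 26 (WT) and 9 (KO) fibroblast-like wells in sort 1 and 1 of each genotype in sort 2. Values by class are a description, since the classes come from the same wells, and the sort 2 fibroblast-like values rest on 1 well each.

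Fibroblast-like wells held the highest levels of several proteases. Mmp3 was at 2411 and 350 CPM in WT sort 1 and sort 2 and at 1622 and 71.2 in KO, against 0 to 28.7 CPM in smooth muscle-like and 0 to 1.18 in endothelial-like wells. Mmp3 was also among the 10 leading genes of the fibroblast-like cluster. Mmp2 was at 1143, 656, 1969 and 552 CPM (WT sort 1, WT sort 2, KO sort 1, KO sort 2) in fibroblast-like wells, 160, 245, 253 and 168 in endothelial-like wells, and 3.23 to 19.2 in smooth muscle-like wells. The 3 classes did not overlap in Mmp2, with endothelial-like wells in the middle. Adamts2, Mmp14 and Timp2 were also higher in every fibroblast-like sum than in any sum of the other classes, Adamts2 at 97.9 to 1158 CPM, Mmp14 at 87.5 to 231 and Timp2 at 605 to 1067. The lowest Adamts2 value was 11 counts in the single KO sort 2 well. That of Mmp14 was 4 counts in the single WT sort 2 well. For both genes the separation in sort 2 thus rests on few reads.

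Other members were found in both classes outside the endothelium or led in smooth muscle-like wells. Mmp23 was at 131 to 646 CPM in fibroblast-like and 86.0 to 177 in smooth muscle-like wells, ranges that overlapped, against at most 0.0977 in endothelial-like wells. Adamts15 followed the same order, with 43.8 to 161, 24.7 to 70.0 and at most 0.282 CPM. Adamts8 was at 19.4 to 62.0 CPM in smooth muscle-like wells, at most 7.70 in fibroblast-like wells and at most 0.0543 in endothelial-like wells. Mmp17 was at 18.8 to 71.4 CPM in smooth muscle-like wells and at most 0.481 in fibroblast-like and 2.56 in endothelial-like wells. The smooth muscle-like ranges of Adamts8 and Mmp17 lay above the endothelial-like wells and above the sort 1 fibroblast-like wells. In sort 2 both genes had 0 counts in the single fibroblast-like well of each genotype, where 3 counts equal 65.6 CPM in WT and 26.7 in KO, so no difference from those wells could be seen. Timp4 was at 38.6 to 63.9 CPM in smooth muscle-like and 21.3 to 43.8 in endothelial-like wells and had a count in 0 of 39 fibroblast-like wells, which allows a share of up to 7.69%.

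**Figure D3:**
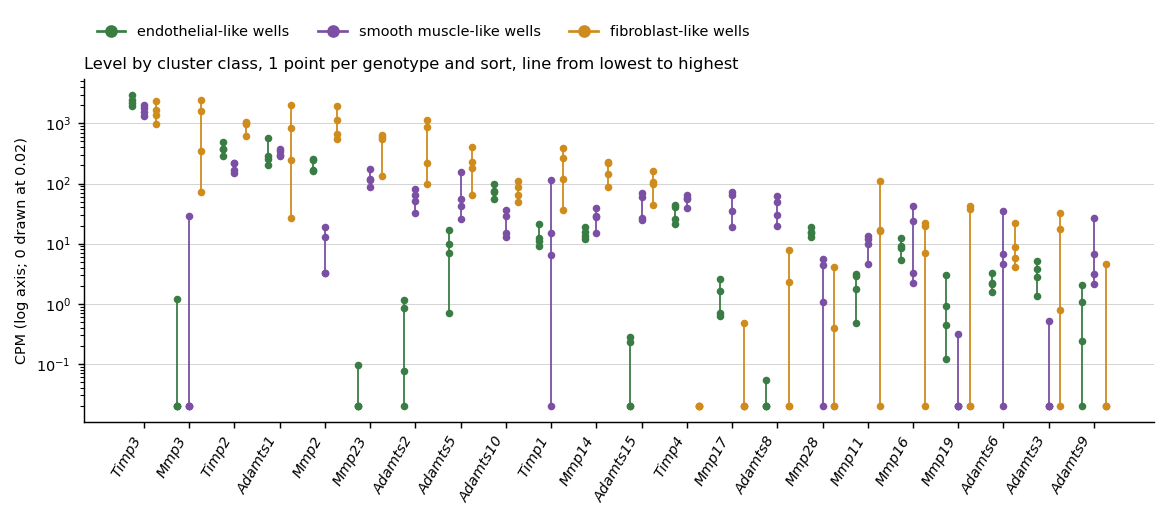
CPM of the 22 members in endothelial-like, smooth muscle-like and fibroblast-like wells, on a log axis, with 1 point per genotype and sort and a line from the lowest to the highest. Mmp2 is highest in fibroblast-like wells (552 to 1969 CPM) and lowest in smooth muscle-like wells, and Adamts8 and Mmp17 have their highest points in smooth muscle-like wells.

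Mmp28 was at 13.01 to 18.8 CPM in endothelial-like wells, above the at most 5.52 of smooth muscle-like and 4.09 of sort 1 fibroblast-like wells, while the single sort 2 fibroblast-like wells were too shallow to compare. Timp3 had its highest mean in endothelial-like wells (1968 to 2967 CPM), but smooth muscle-like wells at 1320 to 2018 and fibroblast-like wells at 990 to 2336 overlapped with it. Adamts10 was at 55.1 to 98.2 CPM in endothelial-like, 49.6 to 109 in fibroblast-like and 13.05 to 36.4 in smooth muscle-like wells. The value of 109 was 5 counts in the single WT sort 2 well. Adamts1 was at 248 (WT) and 826 CPM (KO) in the sort 1 fibroblast-like wells. The single sort 2 wells gave 2013 CPM in WT, from 92 counts, and 26.7 in KO, from 3 counts. Adamts1 was at 205 to 563 CPM in endothelial-like and 292 to 374 CPM in smooth muscle-like wells.

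The genes called higher in Cd31- wells differed in how far their Cd31+ counts came from the 16 wells that were not endothelial-like. For Mmp23 these 16 wells held 98.2% of the 492 counts, for Adamts8 94.4% of 89, for Adamts15 89.9% of 346 and for Adamts2 88.6% of 834. They held 37.0% of the 335 Mmp17 counts, 5.92% of the 2602 Mmp14 counts, 4.002% of the 2074 Adamts5 counts, and 0 of the 408 Mmp11 and 109 Mmp3 counts. Adamts5 and Mmp14 had counts in 53 and 134 of the 660 endothelial-like wells of that gate. With only wells whose class matched their gate, the log2 fold change became 13.60 ± 0.95 (SE) for Mmp23, 10.98 ± 0.90 for Adamts8 and 8.95 ± 1.34 for Adamts2. This step takes out the wells that held most of their Cd31+ counts, so larger values were fixed in advance and add no support. With Cd31+ sums near 0 such fitted values also depend on the prior count. All 10 calls held, with Mmp28 at an edgeR adjusted p of 0.0427.

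Whether a level came from many wells or few was read from the share of wells with a count. In Cd31+ wells Timp3 had a count in 98.1% of 676 wells (95% exact interval 96.7% to 99.0%), Timp2 in 90.2% (87.7% to 92.4%), Mmp2 in 76.6% (73.3% to 79.8%), Adamts1 in 74.7% (71.2% to 77.9%) and Timp1 in 17.3% (14.5% to 20.4%). With every well thinned to 20000 counts these shares were 97.2%, 83.9%, 66.0%, 65.5% and 11.1%. So Timp3, Timp2, Mmp2 and Adamts1 were found in most endothelial wells at equal depth, and Timp1 in few.

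In Cd31- wells Timp3 had a count in 99.1% of 108 wells (94.9% to 100%), Timp2 in 92.6% (85.9% to 96.7%), Mmp23 in 84.3% (76.0% to 90.6%) and Mmp2 in 49.1% (39.3% to 58.9%). Mmp3, with the highest mean level there, had a count in only 18.5% of wells (11.7% to 27.1%), and in 17.6% after thinning. Among the 39 fibroblast-like wells 19 had an Mmp3 count, against 39 with Mmp2 and 37 with Mmp23 and with Adamts2. The Mmp3 level was thus made by few wells, and 1 well gave 30.1% of the WT sort 1 and 40.5% of the KO sort 1 Cd31- counts. The median endothelial-like well had counts of 3 proteases and 2 Timp genes, the median smooth muscle-like well of 5 and 2, and the median fibroblast-like well of 8 and 3. Thinned to 20000 counts, the medians were 2 and 2, 4 and 2, and 7 and 3.

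Within the endothelial-like wells the members varied between clusters. A cluster of 153 wells led by MHC class II genes held wells of WT sort 1 only, so the cluster cannot be told apart from that genotype and sort. Its Adamts1 level was 666 CPM, against 289 and 119 CPM in the WT sort 1 wells of the 2 largest clusters, of 249 and 203 wells. The other 3 combinations of genotype and sort lay at 196 to 295 CPM in those 2 clusters. The level was of like size in the WT sort 1 wells of the 2 small endothelial-like clusters described next, 549 CPM in that of 33 wells and 640 in that of 23 wells, and in their KO sort 1 wells it was 573 and 395 CPM. A cluster of 33 wells led by Htr2b and Ackr1 had Adamts5 at 58.9 CPM in WT sort 1 and 115 in KO sort 1, against 0 in its 3 KO sort 2 wells and at most 21.8 CPM in any sum of the other endothelial-like clusters. A cluster of 23 wells led by Ssu2 and Hapln1 had Timp3 at 8946 CPM in WT sort 1 and 4755 in KO sort 1, against 573 to 3114 in the other endothelial-like clusters. Sort 2 held 3 wells of the former and 2 of the latter cluster, and the values carry no test.

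The study compared KO with WT endothelium, and the members were compared in the 4 Cd31+ sums. No gene was called among the 12702 tested with edgeR (0%), while 468 had an unadjusted p under 0.05 and DESeq2 called 37. Of the 46 members 21 passed the filter, 0 were called, and 1 had an unadjusted p under 0.05. The median log2 fold change of the 21 members was -0.07, against 0.00 over all genes tested.

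The member with the smallest unadjusted p was Timp4, which was at 41.9 and 43.9 CPM in WT and 23.7 and 25.9 in KO Cd31+ sums. Both KO sums lay below both WT sums, and the difference was -0.81 in sort 1 and -0.75 in sort 2 on the log2(CPM + 0.5) scale. Its log2 fold change was -0.78 ± 0.34 (SE, n = 2 and 2 sums; edgeR adjusted p = 1.00). Timp3 was also lower in both KO sums, at 2950 and 2405 CPM in WT and 2168 and 1963 in KO, with a log2 fold change of -0.37 ± 0.25 (SE; edgeR adjusted p = 1.00). Without the cluster of 153 wells the log2 fold changes were -0.38 for Timp4 and -0.25 for Timp3. Without it the sort 1 difference was 0.16 for Timp4 and -0.27 for Timp3 on the log2(CPM + 0.5) scale, so that Timp3 kept its sign in both preparations and Timp4 did not.

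Adamts5, Adamts8, Adamts15 and Mmp16 were higher in KO in both preparations and Adamts6, Mmp11, Mmp17, Mmp19, Timp3 and Timp4 lower, none of them called. For the other described members the sign was not the same in both. The share over all genes was not counted, so these shared signs show nothing particular to the members. Adamts8 and Adamts15 stayed at 0.917 and 3.38 CPM or less in Cd31+ sums, with most counts in wells that were not endothelial-like. In sort 2 their KO values were 0.118 and 0.354 CPM against 0 in WT. In that KO sum 3 counts equal 0.354 CPM, so these signs rest on very few reads. Adamts1 was at 558 CPM in WT and 278 in KO in sort 1 and at 205 in WT and 259 in KO in sort 2, a difference of -1.004 and then 0.33 on the log2(CPM + 0.5) scale. Without the cluster of 153 wells WT sort 1 was at 331 CPM and the sort 1 difference was -0.25, and the log2 fold change of Adamts1 over both preparations went from -0.49 to 0.04 ± 0.28 (SE). Mmp2 was at 159 (WT) and 250 (KO) CPM in sort 1 and at 242 and 167 in sort 2. Mmp23 stood at 0.300 (WT) and 5.05 (KO) CPM in sort 1, but in endothelial-like wells alone it was at most 0.0977 CPM, so the difference lay in wells of other classes. Adamts5 had a log2 fold change of 1.12 ± 1.01 (SE; edgeR adjusted p = 1.00), which was -0.03 without the cluster of 153 wells. Without WT sort 1 it was called, at 4.03, along with Adamts12 at -3.87, with the remaining WT sum assumed to vary like the KO sums.

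**Figure D4:**
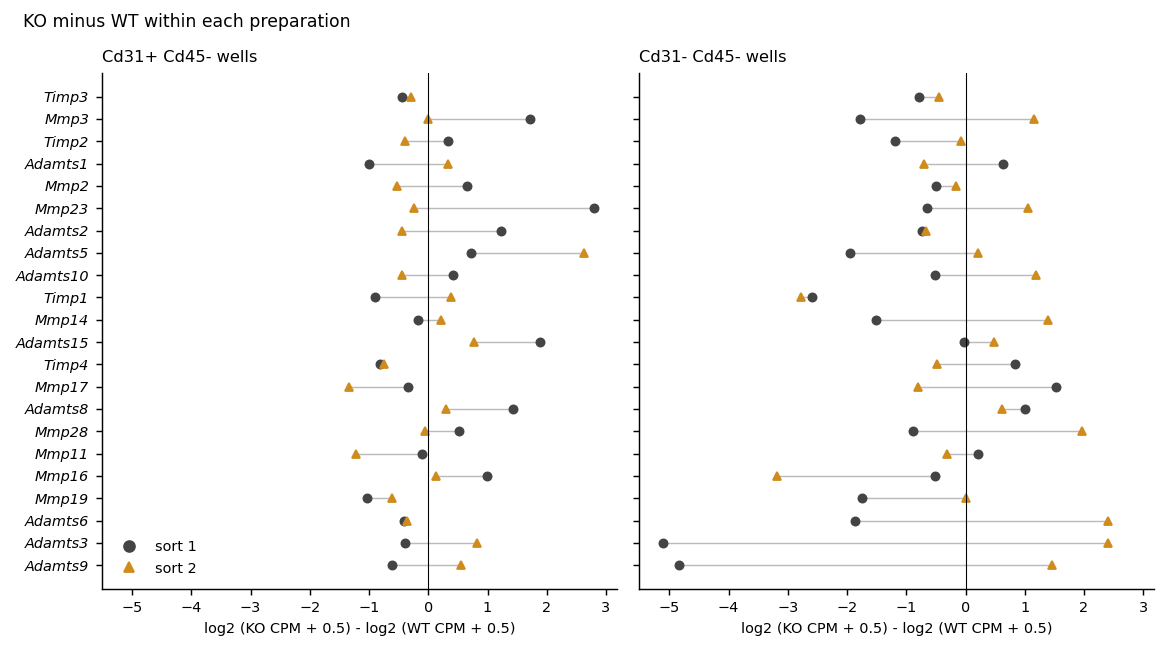
Difference between KO and WT in log2(CPM + 0.5) for the 22 members, Cd31+ wells on the left and Cd31- wells on the right, with circles for sort 1 and triangles for sort 2 joined by a line. Timp3 lies left of 0 in all 4 comparisons, while Adamts1 lies on both sides (-1.004 and 0.33 in Cd31+ wells).

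In the 4 Cd31- sums no gene was called between genotypes among 10544 tested with edgeR (0%), with 275 at an unadjusted p under 0.05 and 5 called by DESeq2. Of the 22 members tested 0 were called and 2 had an unadjusted p under 0.05. Timp1 was at 219 and 32.4 CPM in WT and at 35.8 and 4.32 in KO, lower in KO within each preparation, with a log2 fold change of -2.61 ± 1.06 (SE; edgeR adjusted p = 1.00). The KO sort 2 value of Timp1 was 4 counts in the single fibroblast-like well, where 3 counts of the sum equal 3.24 CPM. Timp3 was at 2125 and 2051 CPM in WT and 1236 and 1511 in KO, and the sums did not overlap (log2 fold change -0.58 ± 0.49, SE; edgeR adjusted p = 1.00). Adamts8 was at 27.4 and 18.2 CPM in WT and 55.3 and 28.1 in KO. Mmp3 was at 1511 and 16.2 CPM in WT and 440 and 36.7 in KO, and its direction turned with the sum left out: without WT sort 1 it was called at 3.90 and without WT sort 2 at -2.65. Timp1 was called at -3.33 without WT sort 2. In these fits 1 WT sum stands alone and is assumed to vary like the KO sums. Fibroblast-like wells made up 26 of 42 WT and 9 of 40 KO wells in sort 1, and 1 of 12 and 1 of 14 in sort 2. Their part in these differences was not tested.

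The difference between genotypes was not shown to differ between the gates, with 0 of 12729 genes (0%) and 0 of 26 members called by edgeR for the interaction. Before adjustment 657 genes had p under 0.05, among them 1 member, Adamts8, and DESeq2 called 46 genes. The fold change of Timp3 differed between gates by 0.20 ± 0.46 (SE) on the log2 scale, an error that leaves room for a difference in either direction.

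The spread between preparations set the error of these tests. Between sort 2 and sort 1 in Cd31+ wells edgeR called 0 of 12702 genes (0%) and 0 of 21 members, with 993 genes and 3 members at an unadjusted p under 0.05 and 106 genes called by DESeq2. Timp2 was at 289 and 366 CPM in sort 1 and 491 and 376 in sort 2 (log2 fold change 0.52 ± 0.21, SE; edgeR adjusted p = 0.618). Adamts2 and Adamts4 had log2 fold changes of -2.33 ± 1.01 and -4.54 ± 1.66 (SE), neither of them called, and in wells whose class matched the gate that of Adamts2 was 0.41. Adamts1 was called at -1.17 without KO sort 1, with the remaining sort 1 sum assumed to vary like those of sort 2. Timp3, at 2950 and 2168 CPM in sort 1 and 2405 and 1963 in sort 2, had a log2 fold change of -0.12 ± 0.21 (SE) between preparations, which was 0.00 without the cluster of 153 wells.

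Genes that work beside these enzymes were counted in lists. Over all genes tested, 9.25% were called higher and 9.79% lower in Cd31- wells. Among the ADAMTS-like genes and papilin, which lack the protease domain, 5 of 6 tested were higher in Cd31- wells and 0 lower, with Thsd4 at 113 to 265 CPM in Cd31- and 0 to 9.49 in Cd31+ sums. The median log2 fold change of this list was 3.78. Among ADAM proteases, which shed proteins from the cell surface, 2 of 8 were higher and 2 lower. Adam10 was at 457 to 612 CPM in Cd31+ and 16.96 to 99.3 in Cd31- sums, and Adam15 at 318 to 571 and 35.6 to 89.5. Activators and inhibitors of matrix proteolysis outside the TIMP family had 6 of 15 higher and 1 lower. Serpine2, which blocks thrombin and plasminogen activators, was at 829 to 2062 CPM in Cd31- and 3.79 to 70.6 in Cd31+ sums.

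Of cathepsins, HTRA proteases and cystatins 2 of 9 were higher and 0 lower in Cd31- wells. Cst3, the inhibitor cystatin C, was at 3456 to 4059 CPM in Cd31+ and 2254 to 5548 in Cd31- sums, which overlapped. Of 21 matrix substrates 14 were higher and 2 lower, with a median log2 fold change of 3.12. Dcn, Lum, Col1a1 and Col1a2 of this list are also among the fibroblast markers used above, so they are no separate result. Decorin (Dcn) was at 1458 to 20173 CPM in Cd31- and 75.4 to 179 in Cd31+ sums, whereas biglycan (Bgn), at 4910 to 7927 and 7648 to 8548, was high in both. No gene of these 5 lists was called between genotypes in Cd31+ or Cd31- wells, or between preparations.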

How the data were processed

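Single cells of mouse aorta were sequenced with Smart-seq2, which keeps neither strand nor molecule identifiers. Per the labels and the study's methods the authors aligned reads with STAR 2.7.7a to GRCm38, removed duplicates with Picard 2.22.0 and used HTSeq 0.9.1 for counting. The authors deposited raw counts per gene and well. Of all counts in the table, 51.9% lay on genes, 1.25% on 92 spike-in lines and 46.9% in 5 summary lines, and only gene lines were used.

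Wells with at least 20000 gene counts and 500 genes were kept (784 of 1024, median 152318 counts). Counts were summed per genotype, gate and preparation into 8 sums. Groups came from the sample labels. Sums were tested with edgeR 4.0.16 (quasi-likelihood, TMM, filterByExpr) in R 4.3.3 over all genes, with Benjamini-Hochberg adjustment and a threshold of 0.05. Cd31- was compared with Cd31+ over all sums, KO with WT and sort 2 with sort 1 within a gate, and the interaction over all sums. Levels are counts per 1000000 gene counts (CPM), and differences within a preparation used log2(CPM + 0.5). Wells were clustered with Seurat 5.3.0, leaving the members out of the variable genes, and clusters were named from marker lists. No doublet caller was run. The fits were tested on counts simulated with known fold changes. Those counts held no plate, preparation or cell-mixture differences, so they say nothing about the effect of these.

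The members and gene lists were chosen with earlier results of these data known. Members with a mean of at least 5 CPM in either gate (22) were described in each sum, other genes as up to 3 of highest level per list. Alternatives were DESeq2 1.42.0, other size factors, no filter, a replicate block, deep, thinned or class-matched wells and each sum left out. The sort number is part of the genotype label, so both gates of a genotype share it. The labels do not state that WT and KO of 1 number shared a preparation. The correlation of same-numbered deviations was 0.136 between genotypes in Cd31+ sums, 0.0807 in Cd31- sums and 0.0628 and 0.0440 between gates in WT and KO. Exact Clopper-Pearson intervals (95%) and the limit for a count of 0 (3 counts) cover counting error only.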

Additional observations from a re-analysis of the deposited data

How the results depend on the processing

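Between the gates 10 members were called, and 7 of these, Adamts2, Adamts5, Adamts8, Adamts15, Mmp3, Mmp17 and Mmp23, kept their call and sign in all 16 refits. Of these 7, Adamts8, Mmp3 and Mmp23 did not pass the filter within the Cd31+ sums alone, so their stable calls add no support. The count of called members was 10 with other size factors, 12 without the filter, 11 with DESeq2, 8 in wells of at least 100000 counts, 10 in thinned wells, 11 in wells whose class matched the gate, and 7 to 10 with 1 sum left out. Without both sort 2 Cd31- sums it was 15, an alternative chosen after seeing the data, as was leaving out the cluster of 153 wells, with 0 called between genotypes or preparations. With the replicate block it was 9, the lost member being Mmp28, and 0 for genotypes, preparations and the interaction, as without the block. With 1 sum left out the count was 0 to 2 between genotypes in Cd31+ and also in Cd31- wells, 0 to 1 between preparations and 0 for the interaction, where no filter on low counts gave 2 (Mmp23 and Mmp3). The difference of Adamts2 between preparations turned from -2.33 to 0.41 in wells whose class matched the gate, which removes the 16 Cd31+ wells of other classes. Without the cluster of 153 wells 3 Cd31+ differences changed sign, Adamts1 (0.037) and Adamts5 (-0.0284) between genotypes and Timp3 (0.002) between preparations, and both Adamts1 and Timp3 did so without WT sort 1. With 1 sum left out, Adamts1 ranged from -1.03 to 0.37, Timp3 from -0.35 to 0.15, and Mmp3 between genotypes in Cd31- wells from -4.34 to 3.90, the last without WT sort 1. Of 368 refits of 26 member differences 324 kept sign and side of the threshold, 23 lost and 14 gained a call and 7 changed sign.

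Thinning moved the share of wells with a count to 83.9% for Timp2, 65.5% for Adamts1, 66.0% for Mmp2 and 11.1% for Timp1 in Cd31+ wells, and to 75.9% for Mmp23 and 80.6% for Timp2 in Cd31- wells. In wells of at least 100000 counts it was 92.7% for Timp2 in Cd31+ and 91.8% for Mmp23 in Cd31- wells. Depth limits the sort 2 Cd31- sums most, where 3 counts equal 3.04 CPM in WT and 3.24 CPM in KO.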

Other observations

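The 240 wells left out for low counts held 5120 counts of members, 3344 of them Timp3 and 750 Adamts1. The 13 members with no count in kept wells had none there either. On chromosome 9, 10 Mmp genes lie within 427 kb (chr9:7272514-7699585 in GRCm38), and 2 of them, Mmp3 and Mmp27, had a count in a kept well. Some low levels came from 1 well: in KO sort 1 Cd31+ wells 99.2% of 129 Adamts18 counts, and in WT sort 2 Cd31+ wells 89.1% of 119 Adamts12 counts, lay in a single well. In KO sort 2 Cd31- wells 48.9% of the 237 Timp2 counts lay in 1 of 14 wells.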
